A study of Mus musculus with 8 samples.

Results

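The transcripts described here encode complement components and receptors: the 3 chains of C1q (C1qa, C1qb and C1qc), the components C3 and C4b, and the receptors C3ar1 and C5ar1. They were chosen by gene symbol, and all 7 were present among the 17143 genes of a single-cell RNA table from mouse hippocampus. Droplet sequencing (10x Chromium) was run on dissociated, frozen and thawed hippocampal cells from 8 saline-perfused mice. The 4 Pb mice (2 females and 2 males) were offspring of dams that drank 32 ppm Pb-acetate, starting 2 weeks before mating and lasting through gestation and lactation. The 4 control mice (2 females and 2 males) came from dams in the control group and carry the treatment label control diet. All 8 were wild-type (a/a) offspring, had Pb-free water after weaning and were killed at 5 months. Mice are named by group, sex and number, so that Pb F1 is exposed female 1. Up to 1 male and 1 female came from a litter, and the labels do not tie mice to litters, so the p-values treat as separate any mice that shared a dam.

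Complement is a cascade of plasma and tissue proteins that tags surfaces for removal. In the classical pathway C1q, assembled from its A, B and C chains, binds a target and starts cleavage of C4 and C2, which leads to cleavage of C3; the fragments C3a and C5a act through the receptors encoded by C3ar1 and C5ar1. In the brain, microglia are the known main source of C1q, and C1q and C3 are known for tagging synapses that microglia take up during development.

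The 3 C1q genes lie side by side on chromosome 4 within 18675 bases (GRCm38, chr4:136880129-136898803, minus strand, GENCODE vM21), in the order C1qb, C1qc and C1qa by coordinate. C3 (chr17:57203970-57228136) and C4b (chr17:34728380-34743882) are on chromosome 17, C3ar1 (chr6:122847138-122856161) on chromosome 6 and C5ar1 (chr7:16246743-16259540) on chromosome 7; all are protein-coding genes on the minus strand. RefSeq's promoter table (GRCm38.p6) held 5 of the 7 members, without C1qa and C4b. Stretches upstream of C1qb and C1qc are shown because they hold the motif searched, and that of C3ar1 as a microglial member without it; each is written 5′ to 3′ on the gene's strand and holds only bases outside the GENCODE gene. Capitals mark GAGGAA or its reverse complement TTCCTC, the letters of the purine-rich box that the myeloid factor PU.1 (Spi1) is known to bind.
C1qb: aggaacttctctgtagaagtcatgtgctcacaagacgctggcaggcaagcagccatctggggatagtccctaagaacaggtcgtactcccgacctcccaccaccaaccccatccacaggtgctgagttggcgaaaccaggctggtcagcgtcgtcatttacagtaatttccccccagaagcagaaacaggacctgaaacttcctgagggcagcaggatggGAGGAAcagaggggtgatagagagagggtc
C1qc: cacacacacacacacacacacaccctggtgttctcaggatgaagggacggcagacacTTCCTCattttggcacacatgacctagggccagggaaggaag
C3ar1: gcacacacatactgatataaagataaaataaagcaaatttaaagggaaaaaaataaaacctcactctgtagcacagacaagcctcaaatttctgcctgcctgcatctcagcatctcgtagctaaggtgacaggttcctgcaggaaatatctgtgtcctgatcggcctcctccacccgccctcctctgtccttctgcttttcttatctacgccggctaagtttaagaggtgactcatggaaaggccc
The C1qb stretch is chr4:136886201-136886450, with the match beginning 30 bases upstream of the RefSeq start on the gene's strand. The C1qc stretch is chr4:136893066-136893164, with the match on the opposite strand beginning 193 bases upstream. The C3ar1 stretch is chr6:122856162-122856407 and holds no match. Over the full 250 bases before the start, 2 of the 5 members held the box on either strand, against 23.3% of all 32851 promoters. A match describes the letters and does not show that the factor binds there.

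Of 5258 deposited cells, 5175 were kept, 3555 from Pb and 1620 from control mice, with 471 to 1157 cells per Pb mouse and 211 to 567 per control mouse. Transcripts are counted as unique molecular identifiers (UMIs), and kept cells held 1749079 to 8508064 UMIs per mouse. Cell barcodes were shared by more than 1 library in 32 cases (91 cells). Clustering, from which all complement genes were left out, gave 22 clusters and 15 classes named from marker genes; cluster 0 (757 cells) was led by hemoglobin transcripts beside endothelial ones and kept its number. Named classes held more of their markers than the other cells did (all 9 of 9 in Microglia-like, 8 of 8 in Astrocyte-like and in Oligodendrocyte-like cells, and 7 of 8 in Neuron-like cells, which were led by Reln). The same markers had served to name the classes, so these counts follow from the naming and are no check of it. Levels are given as CPM, the UMIs of a gene scaled to a common total for each class and mouse, for mice with at least 10 cells of that class. Each UMI marks a captured molecule, so these levels have no length term.

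C1q was a dominant message of microglia. In the 1290 Microglia-like cells C1qa averaged 6341 ± 368 CPM, C1qb 6333 ± 384 CPM and C1qc 4943 ± 307 CPM (SD, n = 8 mice). By pooled level they ranked 9, 10 and 15 among 15916 detected genes, and together they made up 1.77% of the UMIs. Not 1 of the 1290 cells lacked C1q UMIs, and the share of a cell's UMIs that were C1q ran from 0.292% to 4.53%. Perivascular macrophage-like cells (57 cells, with at least 10 cells in only 2 mice) held 4425 CPM of C1qa, 4554 CPM of C1qb and 3439 CPM of C1qc when pooled. Among the 10 classes with at least 3 mice, Oligodendrocyte precursor-like cells came next with 618 ± 251 CPM of C1qa (n = 6 mice), and Smooth muscle-like cells had the lowest mean, 303 ± 69.7 CPM (n = 7). Fibroblast-like cells held 627 CPM of C1qa when pooled over 35 cells.

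Within a mouse, Microglia-like cells exceeded Oligodendrocyte precursor-like cells by 3.45 ± 0.54 log2 units in C1qa, 3.27 in C1qb and 3.61 in C1qc (on log2(CPM + 5), SD of paired differences for C1qa, 6 of 6 mice in each). Below microglia the order of these 10 classes in C1qa was Oligodendrocyte precursor-like, Choroid plexus-like, Astrocyte-like, cluster 0, Endothelial-like, Neuron-like, Oligodendrocyte-like, Pericyte-like and Smooth muscle-like, ordered by mean log2 level, with means of 303 to 618 CPM. Over all members, 0 of 54 neighbouring pairs in the order of classes passed an exact two-sided paired permutation test over mice (smallest adjusted p = 0.241). With 6 mice the exact test cannot give less than p = 0.03125. Adjusted over 54 pairs, that value passes only if most pairs reach it, so the test could not decide on the leading differences.

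**Figure D1:**
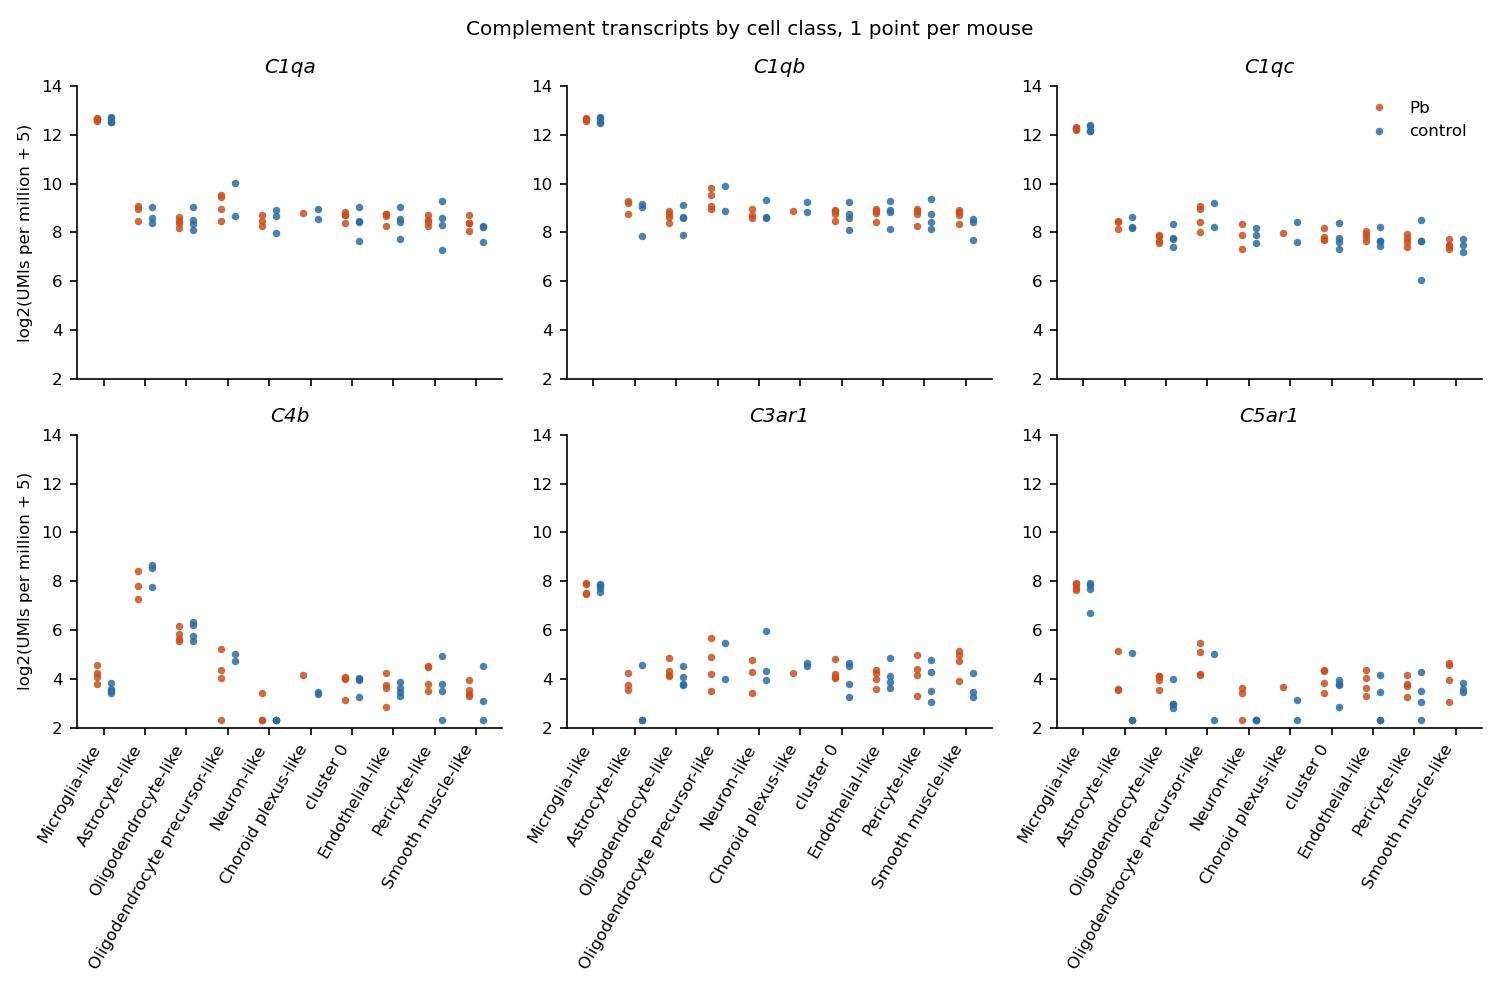
Level of 6 complement transcripts in each cell class, as log2(CPM + 5), with 1 point per mouse that had at least 10 cells of the class (Pb orange at left, control blue at right). Among the 10 classes plotted, which leave out Perivascular macrophage-like cells, C1qa, C1qb, C1qc, C3ar1 and C5ar1 stand highest in Microglia-like cells, and C4b in Astrocyte-like and then Oligodendrocyte-like cells; Pb and control points lie over the same ranges in most classes.

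C1q transcripts did not differ between Pb and control microglia beyond the spread between mice. C1qa measured 6372, 6479, 6134 and 6599.5 CPM in Pb F1, F2, M1 and M2, against 5874, 6806, 6657 and 5806 CPM in control F1, F2, M1 and M2. All 4 Pb values lay inside the control range. C1qb measured 6426, 6355, 6047 and 6654 CPM in the Pb mice, against 5949, 6823, 6664 and 5747 CPM in the control mice. C1qc, the third chain, measured 4984, 4844, 4668 and 5139.9 CPM in the Pb mice, against 4617, 5258, 5415 and 4620.0 CPM in the control mice. The Pb values of these chains also lay inside the control ranges. Fitted log2 changes, Pb over control, were 0.04 for C1qa (SE 0.13), 0.03 for C1qb (SE 0.13) and -0.01 for C1qc (SE 0.13), each with adjusted p = 1.00 in edgeR's quasi-likelihood test. The 95% interval for C1qa ran from -0.23 to 0.30 log2, that is from 0.853-fold to 1.24-fold. The 3 chains summed to 17675 ± 635 CPM in Pb and 17559 ± 1452 CPM in control microglia (exact two-sided permutation p = 0.886, n = 4 each, where 70 arrangements allow no less than 0.0286).

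The anaphylatoxin receptors were the other microglial members. C3ar1, the receptor for C3a, measured 241.3, 170.6, 229.1 and 178.2 CPM in Pb F1, F2, M1 and M2, against 223.0, 232.2, 205.2 and 181.0 CPM in control F1, F2, M1 and M2. Both the highest and the lowest value were Pb mice, and the fitted log2 change was -0.01 (SE 0.15, 95% interval -0.32 to 0.30, adjusted p = 1.00, edgeR). C5ar1, the receptor for C5a, measured 235.4, 208.5, 228.3 and 196.9 CPM in the Pb mice, against 200.1, 235.3, 223.4 and 98.2 CPM in the control mice. Control M2 stood below the other 7 mice, with 77 C5ar1 UMIs in 140 cells, and was the lowest mouse with at least 10 cells in each of the 4 Microglia-like clusters. The fitted log2 change of C5ar1 was 0.25 (SE 0.19, 95% interval -0.17 to 0.66, adjusted p = 1.00, edgeR), and without control M2 it was 5.71e-05. A UMI of C3ar1 was seen in 54.2% ± 6.1 of Microglia-like cells and in 10.0% ± 2.6 of non-immune cells (n = 8), at median depths of 5228 and 6286 UMIs per cell. With every cell thinned to 1500 UMIs the shares were 24.3% ± 3.0 and 1.85% ± 0.95. For C5ar1 the thinned shares were 24.8% ± 4.9 in Microglia-like and 1.07% ± 0.76 in non-immune cells. Pooled Perivascular macrophage-like cells held 261 CPM of C3ar1 (95% Poisson interval 211 to 321) and 463 CPM of C5ar1 (394 to 540), against pooled 212 and 209 CPM in Microglia-like cells; these intervals cover counting error only. In the 2 mice with at least 10 such cells, Pb F1 and Pb M1, C5ar1 was at 477 and 585 CPM, above the Microglia-like cells of all 8 mice, and C3ar1 at 277 and 227 CPM.

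**Figure D2:**
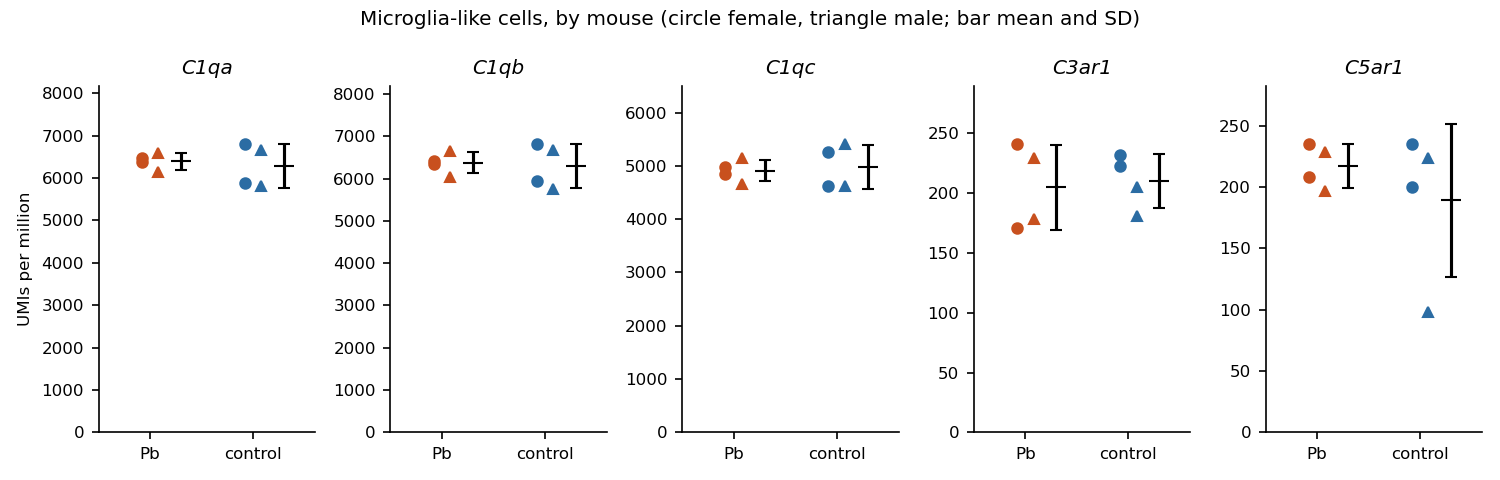
CPM in Microglia-like cells for the C1q chains and both receptors, with 1 point per mouse (circles female, triangles male) and the mean and SD beside each group of 4. The Pb and control points overlap in all 5 panels, and the lowest C5ar1 point is control M2 at 98.2.

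No member passed the test for Pb against control in any class. In Microglia-like cells 5 of 7 members had enough counts to be tested, 0 were called, and 0 had groups that did not overlap; over all 7714 genes tested 0% were called, 2.66% had groups that did not overlap and 4.33% (334 genes) had an unadjusted p under 0.05. DESeq2 and limma-voom also called 0 genes in this class. The median log2 change of the tested members was 0.03, against -0.01 over all genes tested. C4b was not among them. It measured 11.85, 18.95, 14.01 and 8.91 CPM in Pb F1, F2, M1 and M2. Control F1, F2, M1 and M2 held 5.72, 9.25, 6.84 and 6.37 CPM. The groups overlapped, on 2 to 22 UMIs per mouse. In cluster 6 they did not (Pb 9.84 to 17.48, control 0 to 7.90 CPM, 0 to 8 UMIs per mouse). In clusters 3, 4 and 19 they overlapped, and in cluster 4 the Pb mean was the lower (8.58 against 16.20 CPM). In the sum of all non-immune cells 6 members were tested and 0 called (0% of 12164 genes); the fitted changes were 0.03 for C1qa, 0.04 for C1qb, 0.03 for C1qc, 0.07 for C4b, 0.17 for C3ar1 and 0.98 for C5ar1, all above 0, where 47.0% of all genes tested were. C5ar1 alone had an unadjusted edgeR p under 0.05 there (SE 0.37, adjusted p = 0.949), as did 5.03% of all genes; 0 members had groups that did not overlap, against 3.51% of all genes. Its values were 14.3, 10.8, 13.02 and 6.8 CPM in Pb F1, F2, M1 and M2, against 5.1, 11.7, 3.8 and 2.9 CPM in control F1, F2, M1 and M2. The groups overlapped at control F2, and a control mouse's value rested on 7 to 38 UMIs. In cells of all kinds summed, 6 members were tested and 0 called (0% of 12640 genes). In Endothelial-like, Pericyte-like, Smooth muscle-like and Neuron-like cells and cluster 0 only the C1q chains were testable; 0 were called (0% of genes in each), and their log2 changes ran from -0.22 (C1qb, Neuron-like) to 0.46 (C1qb, Smooth muscle-like). Mice with fewer than 10 cells of a class were left out, which left 3 Pb and 3 control mice for Astrocyte-like and for Neuron-like cells and 3 control mice for Smooth muscle-like cells.

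**Figure D3:**
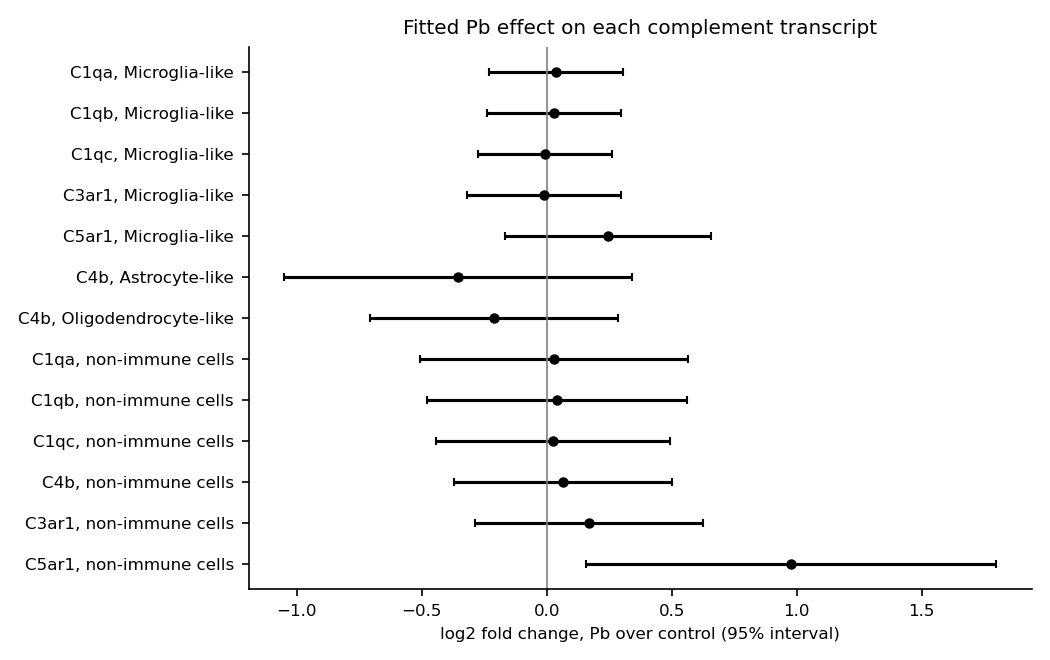
Fitted log2 fold change, Pb over control, with its 95% interval, for the members with a named effect in Microglia-like, Astrocyte-like, Oligodendrocyte-like and non-immune cells. All intervals cross 0 except that of C5ar1 in non-immune cells (0.16 to 1.80), whose adjusted p was 0.949.

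C4b, whose product is split early in the classical pathway, was a transcript of astrocytes and oligodendrocytes rather than of microglia. It averaged 284 ± 102 CPM in Astrocyte-like cells (n = 6 mice), 55.0 ± 13.5 CPM in Oligodendrocyte-like cells (n = 8) and 18.0 ± 11.7 CPM in Oligodendrocyte precursor-like cells (n = 6). Microglia-like cells had 10.2 ± 4.5 CPM (n = 8) and Neuron-like cells 0.946 ± 2.32 CPM (n = 6). Astrocyte-like cells exceeded Oligodendrocyte-like cells by 2.25 ± 0.67 log2 units, and these exceeded Oligodendrocyte precursor-like cells by 1.54 ± 1.21, in 6 of 6 mice each. With cells thinned to 1500 UMIs, C4b was seen in 27.2% ± 7.4 of Astrocyte-like cells and 6.65% ± 3.29 of Oligodendrocyte-like cells, against 1.39% ± 1.77 of Endothelial-like cells. Perivascular macrophage-like cells held 152 CPM when pooled (53 UMIs). In Pb F1 and Pb M1 they stood at 122 and 139 CPM, above the Oligodendrocyte-like cells of all 8 mice. Among mice with fewer than 10 such cells, control F2 held 19 of the UMIs (8 cells, 378 CPM), Pb F2 held 4, and control M1 and M2 held 0. Pooled Fibroblast-like cells held 78.8 CPM (24 UMIs). C4b has a near-identical neighbour, C4a, which was not among the 17143 genes counted, so how their reads were divided is uncertain.

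C4b in Astrocyte-like cells measured 219.6, 341.9 and 150.2 CPM in Pb F1, M1 and M2, against 370.9, 403.4 and 215.1 CPM in control F1, F2 and M2. The groups overlapped, on 16 to 123 UMIs per mouse. The fitted log2 change was -0.35 (SE 0.33, 95% interval -1.05 to 0.34, adjusted p = 0.959, edgeR). Of the 4 members tested 0 were called (0% of 2285 genes) and 0 had groups that did not overlap (10.9% of genes). Without Pb F1, the only Pb female in the fit, the log2 change was 0.24. With sex as a covariate, that value rests on Pb M1 and M2 against control M2, the only control male in the fit. In Oligodendrocyte-like cells C4b measured 44.1, 67.5, 41.7 and 51.6 CPM in Pb F1, F2, M1 and M2, against 75.9, 41.9, 49.0 and 68.1 CPM in control F1, F2, M1 and M2. The fitted log2 change was -0.21 (SE 0.23, 95% interval -0.71 to 0.29, adjusted p = 1.00, edgeR), with 0 of 5 members called (0% of 7614 genes) and 0 without overlap (3.05% of genes). That class joined 3 clusters, of which cluster 20 held 69 of its 71 cells in control M2. Within its cluster 10, led by Enpp6, Anln and Klk6, C4b was at 27.4, 28.8 and 22.4 CPM in Pb F1, M1 and M2, against 57.8, 41.0 and 67.4 CPM in control F2, M1 and M2, on 5 to 19 UMIs per mouse. The fit left out the 2 mice with under 10 cells, and with them included the groups overlapped, since Pb F2 was at 58.5 CPM (4 UMIs, 6 cells) and control F1 at 0 (5 cells). The fit within this cluster, added after its values were seen, gave a log2 change of -1.09 (adjusted p = 0.654, edgeR, with 0 of 4927 genes called), and within cluster 1 it gave 0.07. The share of the 4927 genes without overlap between the fitted groups was not counted. In Astrocyte-like cells, also fitted on 3 against 3 mice, that share was 10.9%.

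C3, the component on which the pathways converge, was nearly undetected. In all 5175 cells 19 UMIs were counted, in 13 cells of 2 mice: 7 UMIs in Pb M1 and 12 in control M2. The other 6 mice had 0, which allows up to 0.353 CPM in the deepest (Pb F1) and 1.72 CPM in the shallowest (control F1), counting 3 UMIs as the floor. In control M2, 4 Ependymal-like cells held 10 of its 12 UMIs, and pooled Ependymal-like cells (20 cells) stood at 100.1 CPM (95% Poisson interval 48.0 to 184). Of those 20 cells 13 came from control M2, and the Ependymal-like cells of other mice held 0 C3 UMIs. In Pb M1 the 7 UMIs lay in 7 cells of 5 classes. Microglia-like cells held 2 C3 UMIs among 7476637. C3 was too low to be tested for Pb against control in any class.

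Microglia-like cells fell into 4 clusters, with the receptors highest in cluster 3 and the C1q chains highest, by mean, in cluster 19. Cluster 3 (443 cells, the deepest at a median of 7017 UMIs) was led by Il1a, Nlrp3, Tnf and Ccl3. Cluster 6 (500 cells, median 5657 UMIs) was led by Tagap, Hmox1 and Rgs2. Cluster 4 (177 cells, the shallowest at a median of 3494 UMIs) was led by Ctss, Ly86 and Tyrobp. Cluster 19 (170 cells, median 4108.5 UMIs) was led by P2ry13, Cx3cr1 and P2ry12. The part of depth in the differences between these clusters was not tested. C3ar1 averaged 294 ± 42.1 CPM in cluster 3, against 162 ± 30.2 in cluster 6, 126 ± 44.3 in cluster 4 and 112 ± 49.7 in cluster 19 (n = 8, 8, 8 and 7 mice). Within mice cluster 3 was above the others by 0.85 ± 0.26, 1.26 ± 0.54 and 1.42 ± 0.74 log2 units, in every mouse with both clusters. C5ar1 averaged 278 ± 68.9 CPM in cluster 3, against 160 ± 44.8, 151 ± 74.3 and 128 ± 36.4 CPM in clusters 6, 4 and 19, with paired differences of 0.78 ± 0.44, 0.96 ± 0.58 and 1.11 ± 0.40 log2 units. C1qa was highest in cluster 19, at 8583 ± 717 CPM, against 7235 ± 624 in cluster 4, 6102 ± 361 in cluster 3 and 5839.7 ± 403 in cluster 6. C1qc followed the same order at 6383 ± 518, 5161 ± 434, 4846 ± 404 and 4589.9 ± 305 CPM. C1qb averaged 7883 ± 1062 CPM in cluster 19 and 7241 ± 674 in cluster 4, which did not differ beyond the spread (-0.09 ± 0.26 log2, cluster 4 minus cluster 19). Cluster 19 exceeded clusters 3 and 6 in all 3 chains in 7 of 7 mice, by 0.31 to 0.54 log2 units.

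In exact two-sided paired permutation tests over mice, the 6 differences of the receptors between cluster 3 and the others, and those of C1qa and C1qc between cluster 19 and the others, each had adjusted p = 0.0331 over 36 tests. In all, 19 of 36 differences passed; 0 did when complement genes were used in clustering, and 0 to 17 when a mouse was left out, while 0 of the 209 alternatives of those 19 changed sign. Complement genes were left out when the clusters were drawn, but the clusters came from the same cells and from genes that vary with these, so those values are not independent evidence. Within Microglia-like cells the C1q chains varied together (Pearson r of 0.59 to 0.65 across 1290 cells on a log scale), C3ar1 and C5ar1 had r = 0.17, and C1q with either receptor had r between -0.03 and 0.04; these cells share depth and mouse, and the weak values are no finding.

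**Figure D4:**
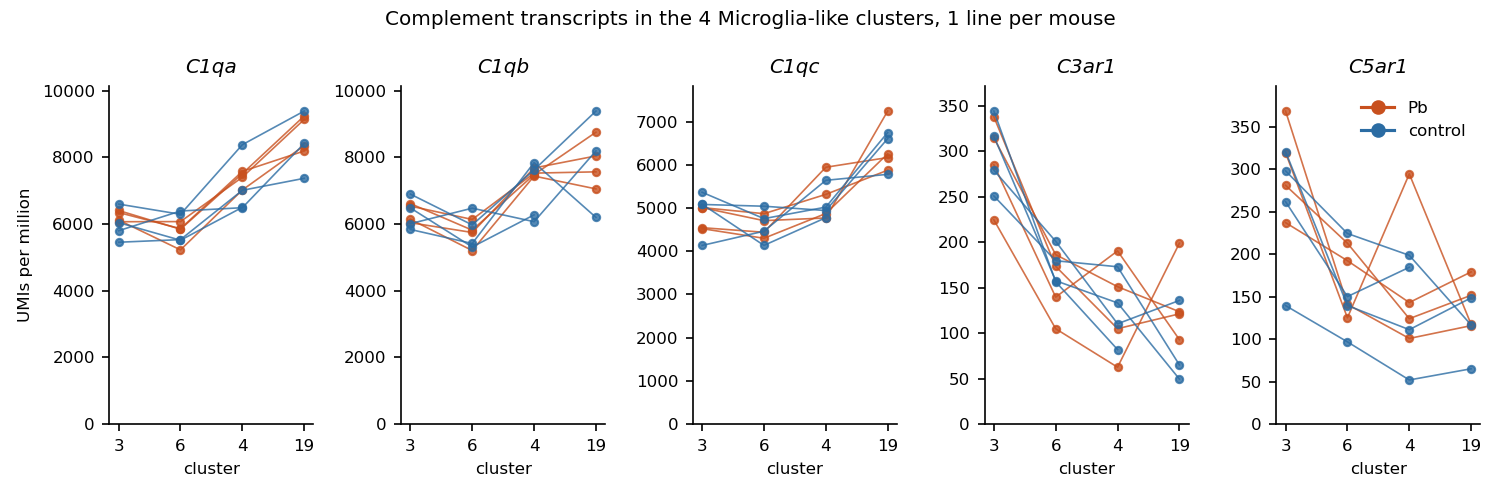
CPM of the C1q chains and both receptors in the 4 Microglia-like clusters, with 1 line per mouse (Pb orange, control blue). C1qa and C1qc end highest at cluster 19 in all 7 mice with that cluster, C1qb in 5 of them, and the receptor lines begin highest at cluster 3 in every mouse; control M2 is the lowest C5ar1 line.

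C1q UMIs were also found in every other class. Non-immune cells held 1030.4 ± 254.6 CPM of the 3 chains (SD, n = 8), which was 5.82% ± 1.25 of the level in the same mouse's Microglia-like cells (3.77% to 7.92%). Of all C1q UMIs, 79.7% ± 4.0 lay in Microglia-like, 2.23% ± 1.76 in Perivascular macrophage-like and 17.9% ± 2.5 in non-immune cells. C1qa was seen in 86.8% ± 4.6 of non-immune cells and 99.9% ± 0.27 of Microglia-like cells, and after thinning in 42.8% ± 7.9 and 99.9% ± 0.27. The level was 1210, 1087, 895 and 1023 CPM in Pb F1, F2, M1 and M2, against 619, 1497, 924 and 987 CPM in control F1, F2, M1 and M2. The Pb mice (1054 ± 131 CPM) lay within the range of the control mice (1007 ± 364 CPM; exact two-sided permutation p = 0.83, n = 4 each). Other transcripts of microglia stood at like shares of their microglial level in non-immune cells, from 3.19% ± 0.85 for Cx3cr1 to 9.35% ± 2.14 for Tyrobp, with C3ar1 at 6.98% ± 2.01 and C5ar1 at 4.07% ± 1.62. Whether the C1q, C3ar1 and C5ar1 UMIs of non-immune classes came from expression by those cells was not tested. Non-immune cells with 0 UMIs of 6 microglial transcripts numbered 3 to 14 per mouse and still held 760 ± 402 CPM of C1q.

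The chains were not in the same proportion in the 2 sets of cells. The ratio of C1qc to C1qa UMIs was 0.614 in non-immune and 0.780 in Microglia-like cells, a difference of -0.17 ± 0.06 in the same direction in 8 of 8 mice. The ratio of C1qb to C1qa was 1.15 in non-immune and 0.999 in Microglia-like cells, a difference of 0.15 ± 0.03, again in 8 of 8 mice. Both had p = 0.00781 in an exact two-sided paired permutation test, the smallest that 8 mice allow (adjusted p = 0.00781 over the 2 ratios). Pooled by class, C1qc to C1qa was 0.777 in Perivascular macrophage-like cells, 0.724 in Astrocyte-like, 0.712 in Fibroblast-like, 0.697 in Oligodendrocyte precursor-like, 0.621 in Oligodendrocyte-like, 0.584 in Endothelial-like and 0.552 in Choroid plexus-like cells. The other immune classes, T or NK cell-like (27 cells) and B cell-like (16 cells), stood at 0.643 and 0.577, also below Microglia-like cells, on few cells. The ratios did not differ between Pb and control mice beyond their spread (exact two-sided permutation p = 0.80 for C1qc to C1qa in non-immune cells and 0.114 in Microglia-like cells, n = 4 each).

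Across the 8 mice the C1q level in non-immune cells and the share of UMIs that came from Microglia-like cells (15.8% to 23.2%) had Pearson r = 0.56 (exact permutation p = 0.155) and Spearman rho = 0.79 (p = 0.0279). Without the 2 mice farthest from the median share r was 0.68 (n = 6, exact permutation p = 0.129). This was the only such relation computed, and Pb and control mice were mixed in it. The part that free RNA, doublets or fragments play in these UMIs was not tested.

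**Figure D5:**
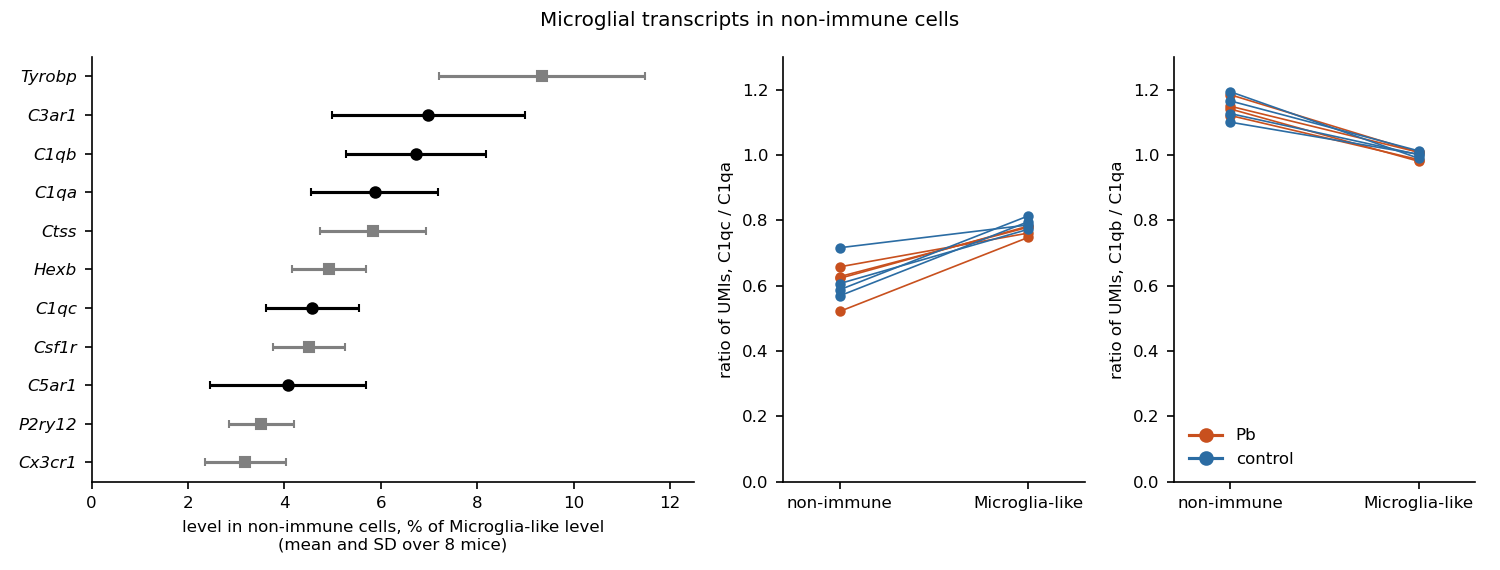
Left, level in non-immune cells as a percent of the Microglia-like level of the same mouse (mean and SD over 8 mice) for 5 members (black circles) and 6 other microglial transcripts (grey squares). Middle and right, ratios of C1qc and of C1qb to C1qa UMIs in non-immune and Microglia-like cells, 1 line per mouse (Pb orange, control blue): C1qc to C1qa is lower and C1qb to C1qa higher in non-immune cells of all 8 mice.

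The other complement genes were counted from fixed lists, of which 41 genes were in the table. Early proteases were scarce: the highest pooled levels of C1ra, C1s1, C1rb, C1s2, Masp1 and Masp2 rested on 1 to 5 UMIs, and C2, which is cleaved together with C4, reached 26.3 CPM in Fibroblast-like cells on 8 UMIs. Colec12, a scavenger receptor with a collectin domain, reached 495 CPM in the 35 Fibroblast-like cells. Among alternative and terminal components, Cfp, which encodes properdin, reached 147 CPM in Perivascular macrophage-like cells, while Hc (the gene for C5), C8g and Cfb rested on 1 to 5 UMIs. Regulators were spread over other classes. Clu, which encodes clusterin, averaged 4962 ± 641 CPM in Astrocyte-like cells (n = 6), and Vtn, which encodes vitronectin and was also a marker used to name pericytes, 5052 ± 980 CPM in Pericyte-like cells (n = 8). Csmd1, Csmd2, Csmd3 and Susd4, membrane regulators, were highest in Oligodendrocyte precursor-like cells, at 132 ± 29.2, 69.7 ± 25.5, 117 ± 31.7 and 77.3 ± 30.8 CPM (n = 6). Cr1l, the rodent regulator Crry, averaged 119 ± 19.3 CPM in Endothelial-like cells (n = 8) and Cd59a, an inhibitor of the membrane attack complex, 239 ± 51.2 CPM in Choroid plexus-like cells (n = 3). Serping1, which encodes C1 inhibitor, was highest in pooled Fibroblast-like cells, at 433 CPM. Among other receptors, Itgam, the alpha chain of complement receptor 3, averaged 429 ± 63.4 CPM and Trem2, a microglial receptor, 1797 ± 126 CPM in Microglia-like cells (n = 8). Cd93 averaged 279.7 ± 61.5 CPM in Endothelial-like cells (n = 8). C5ar2, the other C5a receptor, reached 69.0 CPM in Perivascular macrophage-like cells on 24 UMIs.

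No gene of these lists passed the test for Pb against control. In cells of all kinds summed, 0 of 14 regulators tested were called, with 6 above and 8 below 0 and a median log2 change of -0.08, and 0 of 8 receptors, with 3 above and 5 below 0 and a median of -0.06, against a median of -0.02 over all genes. In Microglia-like cells 0 of 7 regulators (median -0.03) and 0 of 6 receptors (median -0.08) were called. Itgam had a log2 change of -0.15 (SE 0.15) and Trem2 of -0.06 (SE 0.13) there, both with adjusted p = 1.00 in edgeR.

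By the likeness of their pattern over 14 classes (Pearson r of log2(CPM + 5), a description that rests mostly on the contrast of immune with other classes), C1qa was nearest to Aif1 (r = 1.00), C1qc, C1qb, Fcgr3 and Cd83. C1qb and C1qc were nearest to each other (r = 1.00) and also had Spi1 among their 5 nearest genes (r = 0.98). C3ar1 was nearest to Fcgr1 (r = 0.98), Bcl2a1a, Ccl12, Tlr7 and Cd86, and C5ar1 to Igsf6 (r = 0.96), Slc15a3, Bank1, Nfam1 and Cd180. C4b had weaker neighbours, Apoe (r = 0.89), Slc14a1, Egfr, Mt1 and Pxdn. C3 was nearest to D830044I16Rik (r = 0.98), Gm17455, Car9, Cdhr4 and Ccdc180, all highest in Ependymal-like cells, on the few UMIs given above.

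Sex made no called difference to any member. In the same fits, male against female gave 0 calls over 41 pairs of member and class (lowest adjusted p = 0.910 in edgeR), and the product of exposure and sex 0 calls over 31 (lowest adjusted p = 0.997). Over all genes, male against female called 0.219% in Astrocyte-like, 0.208% in cluster 0, 0.0769% in Endothelial-like, 0.0740% in Pericyte-like, 0.0648% in Microglia-like, 0.0607% in Neuron-like, 0.0595% in Smooth muscle-like, 0.0525% in Oligodendrocyte-like, 0.0411% in non-immune and 0.0396% in all cells, and the product of exposure and sex called 0%.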

How the data were processed

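Single-cell RNA was measured in 8 hippocampal samples, and the deposited table holds UMI counts per gene and cell, not normalized, made by the authors with Cell Ranger and Seurat on mm10, per the submitters' processing notes; their versions and the strand setting were not stated. The members and gene lists were chosen with earlier results of these data known. Cells over 20% mitochondrial UMIs (53) and called doublets (33 called, 0.628%; 30 removed after the first filter) were left out, and the 5175 cells kept were clustered with scanpy 1.11.5 without complement, sex-linked or mitochondrial genes. Classes were named from marker lists by thresholds set after the data were seen. Counts were summed per mouse and class (at least 10 cells) and tested with edgeR 4.0.16's quasi-likelihood test with TMM scaling, filterByExpr and sex as a covariate, with Benjamini-Hochberg adjustment over all genes tested. Class and cluster levels were compared on log2(CPM + 5) by exact permutation tests over mice. On simulated Microglia-like counts (7714 genes) the edgeR step recovered 74 of 100 genes changed 2-fold and 98 of 100 changed 4-fold, with 4 false calls. The simulation gave every gene the same dispersion and held no sex effect, so recovery in the real counts may differ. The genes named are the 7 members, the other complement genes by their highest class and the 5 genes nearest to each member. Alternatives were DESeq2 1.42.0, limma-voom (limma 3.58.1), other scaling, filters and clusterings, and leaving out each mouse. Poisson intervals and floors (3 UMIs) cover counting error only.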

Additional observations from a re-analysis of the deposited data

Results flagged for a closer look

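C4b in non-immune cells was 42.7 CPM in Pb M1, far from the other 3 Pb mice at 29.1 to 30.1 CPM. It was the only such value among 34 groups of 4 mice looked at, and chance sets apart about 1 in 20. Astrocyte-like cells, the class with most C4b, made up 88 of the 841 non-immune cells of Pb M1, against 52 of 831 in Pb F1, 9 of 330 in Pb F2 and 52 of 634 in Pb M2. The part of that makeup in the value was not tested.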

How the results depend on the processing

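No member passed the test in any of 254 alternatives of its effect (lowest adjusted p = 0.509); 222 kept the sign and 32 did not, all of effects whose main interval crosses 0. Genes called, 0 in the main edgeR test of each class, numbered 60 in Microglia-like, 27 in Endothelial-like, 25 in Oligodendrocyte-like, 22 in cluster 0, 18 in Smooth muscle-like, 16 in Pericyte-like, 5 in Astrocyte-like and 1 in Neuron-like cells with no filter on low counts. DESeq2 called 29 in all cells, 21 in non-immune cells and 1 each in Endothelial-like, Oligodendrocyte-like and Pericyte-like cells. Leaving out a mouse gave 0 to 11 in Astrocyte-like, 0 to 6 in Endothelial-like, 0 to 5 in Microglia-like and Smooth muscle-like cells, 0 to 1 in cluster 0, 0 to 2 in Pericyte-like and 0 to 3 in Oligodendrocyte-like cells. The replicate block gave 8 in Astrocyte-like and 3 in Neuron-like cells and 0 elsewhere. Deviations of same-coded mice from their group means had correlations of -0.33 to 0.04. The labels tie these mice by code alone, and such correlations cannot decide whether they also shared a batch. With 1 cluster of a class alone, added after seeing the data, cluster 3 gave 2 and cluster 1 gave 4.

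The sign of a microglial effect changed for C1qa in cluster 6 (-0.030); for C1qb at Leiden resolution 0.5 (-0.00093) and in clusters 19 (-0.0700), 3 (-0.0026) and 6 (-1.55e-05); for C1qc with no filter (0.026) and in clusters 4 (0.0060) and 6 (0.011); and for C3ar1 with no filter (0.024) and in cluster 19 (0.445). C4b in Oligodendrocyte-like cells was 0.069 in cluster 1. Without each mouse in turn the effect on C4b in Astrocyte-like cells ran from -0.84 to 0.24. The value of 0.24 came without Pb F1, the only Pb female in that fit, and so compared males only. The microglial effects, without each mouse in turn, ran from -0.0013 to 0.078 for C1qa, -0.015 to 0.071 for C1qb, -0.049 to 0.043 for C1qc and -0.11 to 0.089 for C3ar1. In non-immune cells they ran from -0.20 to 0.31 for C1qa, -0.18 to 0.29 for C1qb, -0.14 to 0.29 for C1qc, -0.12 to 0.17 for C4b, 0.07 to 0.35 for C3ar1 and 0.70 to 1.46 for C5ar1 (highest without control F2, lowest without Pb M1), and the C1q sum, Pb minus control, from -82.2 to 210.2 CPM. The C1q sum in non-immune cells averaged 1459.8 CPM with a 10% mitochondrial filter and 760.5 CPM in cells without microglial UMIs. Under the 10% filter the clusters were also redrawn and renamed, and any cluster without an immune name counted as non-immune. Whether the higher sum came from the filter or from a changed set of cells was not tested. Of the differences between Microglia-like clusters, 19 of 36 passed the threshold; 0 did when complement genes were used in clustering, and 0 to 17 when a mouse was left out, where fewer mice raise the smallest p; 0 of the 209 alternatives of the 19 changed sign. The causes were not tested otherwise. Depth limits C3 (19 UMIs in all), C5ar1 in non-immune cells of control mice (7 to 38 UMIs) and C4b in Astrocyte-like cells (16 to 123 UMIs per mouse).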

Other observations

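Megf10, an astrocytic engulfment receptor reported to bind C1q, averaged 79.1 ± 29.0 CPM in Astrocyte-like cells (SD, n = 6 mice). Lrp1 and Calr, which have been described as part of C1q uptake, were highest in Fibroblast-like cells (387 CPM, pooled over 35 cells) and Choroid plexus-like cells (977 ± 349 CPM, n = 3 mice). Fcna, a lectin that starts the lectin pathway, rested on 9 UMIs in Perivascular macrophage-like cells.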
